A study of Mus musculus with 6 samples.

Results

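Transcripts of 10 neutrophil granule genes were followed through RNA sequencing of hematopoietic stem cells (HSCs) that lack the ribosomal protein Rpl22. The genes were chosen by symbol, as products of the primary granules (*Mpo*, *Elane*, *Prtn3* and *Ctsg*), of the secondary granules (*Camp*, *Ltf*, *Ngp* and *Lcn2*) and as the S100 alarmins (*S100a8* and *S100a9*). They are 10 of the 34573 genes in the count table, and all 10 were among the 14004 genes with enough reads to test. The cells were lineage-negative, Kit+ Sca1+ CD48- CD150+ HSCs, as the study defines them, sorted from mouse bone marrow. There were 3 libraries from *Rpl22*-/- mice (labelled KO) and 3 from *Rpl22*+/+ mice (labelled WT). The labels name no treatment in either group. The *Rpl22*-/- mice carry the deletion in the germline, so every cell type of the marrow lacks the gene, and both genotypes were young adults on a C57BL/6 background. The labels number the replicates without saying that each came from its own mouse, so p-values measure the spread between these libraries, which may in part be technical.

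Neutrophils fill their granules in sequence as they mature. Primary, or azurophil, granules are made in promyelocytes and carry myeloperoxidase and the serine proteases, while secondary, or specific, granules follow in myelocytes and metamyelocytes and carry lactoferrin, lipocalin 2, cathelicidin and neutrophilic granule protein. S100A8 and S100A9 pair to form calprotectin, a calcium- and metal-binding protein that fills the cytosol of neutrophils. The genes are driven by transcription factors of the C/EBP family and by PU.1, and they are known for very high expression in maturing neutrophils, whereas an HSC stands several divisions before any of these stages. The comparison asks whether the loss of *Rpl22* goes with more or less of these transcripts in the stem cell sort.

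The windows before the transcription start of 7 members are shown, the 4 primary granule genes because 3 of them moved together across libraries while *Prtn3* did not, and *Camp*, *Ltf* and *Ngp* because they are genes of the later class on chromosome 9 that differ in their C/EBP matches. RefSeq starts were matched by symbol for 10 of 10 members. Each sequence is read 5′ to 3′ on the strand of its gene in GRCm38.p6, and is the part of the 250 bases before the RefSeq start that lies outside the exons of the same gene in GENCODE, which for *Prtn3* is intronic to a longer transcript. Capitals mark the letters GAGGAA or TTCCTC, the core bound by PU.1, and TTGCNNAA or TTNNGCAA, a core bound by C/EBP factors.
*Mpo*, chr11:87793534-87793580, forward: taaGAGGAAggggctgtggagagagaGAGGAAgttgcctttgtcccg
*Elane*, chr10:79886062-79886246, forward: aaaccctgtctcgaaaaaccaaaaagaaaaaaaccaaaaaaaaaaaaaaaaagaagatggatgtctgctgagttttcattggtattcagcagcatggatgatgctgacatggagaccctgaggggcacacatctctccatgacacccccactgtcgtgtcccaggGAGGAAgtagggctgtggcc
*Prtn3*, chr10:79879417-79879613, forward: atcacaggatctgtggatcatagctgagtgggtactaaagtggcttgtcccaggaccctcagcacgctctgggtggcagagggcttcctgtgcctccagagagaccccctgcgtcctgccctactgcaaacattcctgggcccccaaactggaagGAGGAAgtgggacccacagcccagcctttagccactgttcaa
*Ctsg*, chr14:56102575-56102824, reverse: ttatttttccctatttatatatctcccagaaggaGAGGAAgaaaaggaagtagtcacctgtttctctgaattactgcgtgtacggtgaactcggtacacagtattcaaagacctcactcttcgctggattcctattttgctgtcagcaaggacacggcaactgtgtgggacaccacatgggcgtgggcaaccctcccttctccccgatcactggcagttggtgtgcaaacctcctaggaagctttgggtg
*Camp*, chr9:109849618-109849706, reverse: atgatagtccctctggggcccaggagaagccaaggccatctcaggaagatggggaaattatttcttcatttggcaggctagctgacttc
*Ltf*, chr9:111019042-111019270, forward: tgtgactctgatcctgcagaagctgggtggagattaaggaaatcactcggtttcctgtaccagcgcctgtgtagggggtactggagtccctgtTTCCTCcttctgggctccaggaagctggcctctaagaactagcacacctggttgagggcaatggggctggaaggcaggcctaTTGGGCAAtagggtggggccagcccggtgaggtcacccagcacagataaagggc
*Ngp*, chr9:110419558-110419746, forward: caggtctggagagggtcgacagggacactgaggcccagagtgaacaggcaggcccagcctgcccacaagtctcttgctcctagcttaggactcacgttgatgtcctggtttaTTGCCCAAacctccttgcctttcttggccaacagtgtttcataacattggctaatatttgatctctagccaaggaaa

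Over the whole 250 bases, the PU.1 letters were present before 7 of 10 members, and before 23.3% of 32851 RefSeq starts searched in the same way on both strands. All 4 primary granule genes held them, with 2 matches before *Mpo*, which begin 247 and 224 bases before the start, and 1 each before *Elane* (85 bases), *Prtn3* (95 bases) and *Ctsg* (216 bases). The C/EBP letters were present before 4 of 10 members and before 9.56% of all starts. They stood before *Ltf* (75 bases before the start), *Ngp* (138 and 11 bases, the second outside the part printed), *Lcn2* (216 bases) and *S100a9* (236 bases), and before none of the primary granule genes. The whole *Lcn2* window lies inside the span of that gene in GENCODE, so its PU.1 and C/EBP matches fall within the gene. For *Mpo* the GENCODE gene starts inside the window, and both PU.1 matches lie in the 47 bases before it. *Camp* held neither set of letters in this window. The 2 motifs do not overlap at any of these matches. A match describes the letters alone. *Elane* and *Prtn3*, whose products are the closely related proteases neutrophil elastase and proteinase 3, both hold 1 PU.1 match and no C/EBP match.

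The libraries held between 9321123 and 13385850 counts on genes, and the counts were scaled to CPM, the counts per 1000000 counts of the library, with edgeR's TMM factors. Where 3 values of a genotype are given, they stand in the order of replicates 1, 2 and 3. *Rpl22* itself had 449, 527 and 546 counts in *Rpl22*-/- libraries against 6890, 7001 and 5031 in *Rpl22*+/+ libraries, a log2 fold change of −3.75 ± 0.105 (SE, edgeR adjusted p = 2.97e-12), which matches the labels. All 13 HSC markers were detected and tested, and their summed level was 3169 to 3502 CPM in *Rpl22*-/- and 3258 to 3313 CPM in *Rpl22*+/+ HSCs. *Cd48*, which the sort selects against, had 47 to 92 counts per library and differed by 0.19 on the log2 scale (adjusted p = 0.670). Of 10 neutrophil surface and receptor markers outside the granules, 5 had under 10 counts in every library, among them *Ly6g* (0 to 3 counts), *Fpr1* (0 to 4), *Fpr2* (0 to 3) and *Trem1* (0 to 1). *Itgam*, which encodes CD11b, one of the antigens used to deplete mature cells, was measurable at 116 to 164 counts.

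*Mpo*, which encodes myeloperoxidase, the peroxidase that makes hypochlorous acid from hydrogen peroxide and chloride, had 178, 1218 and 225 counts in *Rpl22*-/- libraries. The *Rpl22*+/+ libraries had 19, 72 and 197 counts. *Rpl22*-/- replicate 2 was far above every other library, and the other *Rpl22*-/- libraries, at 13.9 and 17.1 CPM, lay between *Rpl22*+/+ replicate 2 at 5.78 CPM and *Rpl22*+/+ replicate 3 at 20.5 CPM. *Rpl22*-/- HSCs averaged 44.1 ± 49.6 CPM and *Rpl22*+/+ HSCs 9.25 ± 9.98 CPM (SD, n = 3 each). This log2 difference of 2.32 ± 0.705 (SE) did not pass the threshold of 0.05 (adjusted p = 0.0642, quasi-likelihood F test of edgeR, Benjamini-Hochberg over all genes tested), and without *Rpl22*-/- replicate 2 it was 0.81 (adjusted p = 0.471). The gene lies on chromosome 11 (87793581 to 87804413, forward strand of GRCm38), where the antisense gene *Gm11505* overlaps it, and the strand setting of the counting is not given in the sources used here.

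*Elane*, which encodes neutrophil elastase, was highest in *Rpl22*-/- replicate 2 and lowest in *Rpl22*+/+ replicate 1, as was *Mpo*. It had 45, 243 and 36 counts in *Rpl22*-/- libraries, and 4, 8 and 49 in *Rpl22*+/+ libraries. The genotypes overlapped, since *Rpl22*+/+ replicate 3 (5.10 CPM) was above *Rpl22*-/- replicates 1 (3.51 CPM) and 3 (2.73 CPM). Between genotypes the log2 difference was 2.24 ± 0.773 (SE, edgeR adjusted p = 0.0970). Without *Rpl22*-/- replicate 2 it was 0.74 (adjusted p = 0.626).

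*Ctsg*, which encodes cathepsin G, a chymotrypsin-like protease of the same granules, was the primary granule gene that passed the test. Its counts were 28, 163 and 48 in *Rpl22*-/- libraries, against 1, 10 and 19 in *Rpl22*+/+ libraries. The genotypes did not overlap, although the gap between the nearest libraries was small, 2.18 CPM in *Rpl22*-/- replicate 1 against 1.98 CPM in *Rpl22*+/+ replicate 3. The mean was 6.47 ± 6.19 CPM in *Rpl22*-/- against 0.952 ± 0.959 CPM in *Rpl22*+/+ libraries (SD, n = 3 each), and the gene rose by a log2 value of 2.85 ± 0.697 (SE, edgeR adjusted p = 0.0282). Counting error alone is wide at these depths, as the single count in *Rpl22*+/+ replicate 1 has a 95% Poisson interval of 0.0253 to 5.57 counts (exact, counting error only). The call was lost without *Rpl22*-/- replicate 2 (log2 fold change 1.71, adjusted p = 0.162), without *Rpl22*-/- replicate 3 or *Rpl22*+/+ replicate 1 or 2 (log2 fold changes 3.14, 2.25 and 2.78, adjusted p = 0.0686, 0.103 and 0.0915), with DESeq2 (2.78, adjusted p = 0.161) and with limma-voom (3.13, adjusted p = 0.0616).

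*Prtn3*, which encodes proteinase 3, did not share this pattern. It had 939, 873 and 724 counts in *Rpl22*-/- libraries and 774, 705 and 714 counts in *Rpl22*+/+ libraries. These are levels of 55.0 to 73.2 CPM and 56.6 to 74.3 CPM, and the ranges overlapped nearly end to end. On the log2 scale the genotypes differed by 0.08 ± 0.123 (SE, edgeR adjusted p = 0.751). *Prtn3* and *Elane* lie head to tail on chromosome 10, with 3073 bases between the end of *Prtn3* (79874476 to 79883174) and the start of *Elane* (79886247 to 79888215), both on the forward strand of GRCm38. Per kilobase of exon, *Prtn3* stood above *Elane* by a factor of 2.04 in *Rpl22*-/- replicate 2, of 11.9 and 11.4 in *Rpl22*-/- replicates 1 and 3, and of 110 and 50.1 in *Rpl22*+/+ replicates 1 and 2, and of 8.28 in *Rpl22*+/+ replicate 3. The ratio thus differed widely between libraries of the same genotype, and it was the level of *Elane* that moved. Part of the *Prtn3* span overlaps *Plppr3* on the opposite strand, so the counts of *Prtn3* could have been affected if the counting did not use strand.

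**Figure D1:**
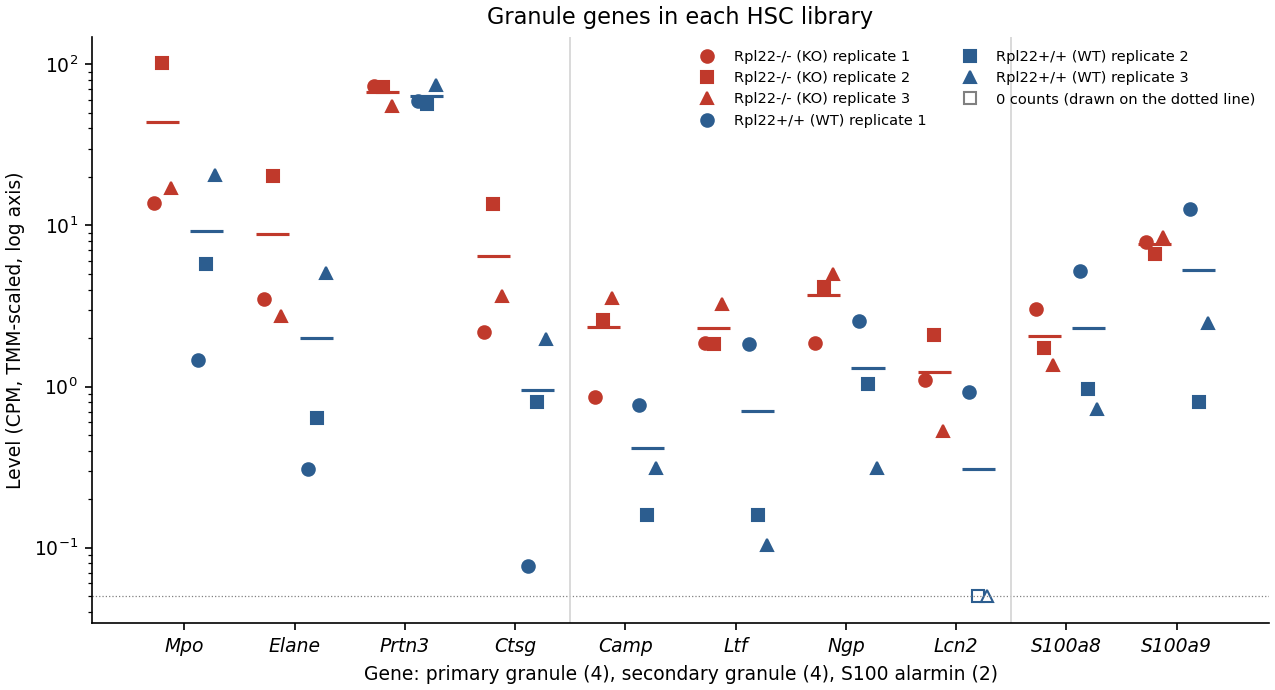
Level of each granule gene in each library, in CPM with TMM scaling on a log axis, with *Rpl22*-/- (KO) libraries in red and *Rpl22*+/+ (WT) libraries in blue, marker shape for the replicate number and a bar for the mean of 3 libraries. *Rpl22*-/- replicate 2 (red square) is highest for *Mpo*, *Elane* and *Ctsg*, *Rpl22*+/+ replicate 1 (blue circle) is the highest *Rpl22*+/+ library for all 6 secondary granule and alarmin genes, and *Prtn3* lies between 55.0 and 74.3 CPM in every library.

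Summed over *Mpo*, *Elane* and *Ctsg*, the level was 19.6, 135 and 23.5 CPM in *Rpl22*-/- libraries and 1.84, 7.22 and 27.6 CPM in *Rpl22*+/+ libraries. *Rpl22*-/- replicate 2 thus held most of the transcripts of the 3 genes in its genotype, and *Rpl22*+/+ replicate 3 lay above the other 2 *Rpl22*-/- libraries. *Rpl22*-/- replicate 2 was also the highest for several genes of other myeloid cells, which are named here after their values were seen. *Ly6c2*, a monocyte surface antigen, had 110 counts in *Rpl22*-/- replicate 2 and 2 to 27 in the other libraries. *F13a1*, which encodes the A chain of coagulation factor XIII and is made by monocytes and megakaryocytes, had 115 counts there and 4 to 36 elsewhere, and *Ccr2*, a chemokine receptor of monocytes, had 39 counts there and 1 to 17 elsewhere. The basophil protease gene *Mcpt8* had 17 counts in that library and 0 to 2 in the others. Other genes of these lists did not follow, as *Prg2*, the eosinophil major basic protein, had 4 counts there against 9 and 11 in *Rpl22*+/+ replicates 2 and 3, and *Ms4a2*, a chain of the IgE receptor, had 3 there against 8 in *Rpl22*+/+ replicate 2. *Ms4a6c*, the most abundant of the monocyte list, was at 20.2 CPM there and at 18.9 to 22.0 CPM elsewhere, and *Fcgr1*, the high-affinity IgG receptor, had 0 counts there and 2 to 5 elsewhere. Over the whole list of 11 monocyte and macrophage markers, of which 6 were tested, the summed level was 41.4 to 68.6 CPM in *Rpl22*-/- and 38.3 to 49.4 CPM in *Rpl22*+/+ HSCs, with *Rpl22*-/- replicate 2 the highest on the sum and for 7 of the 11 genes. The list of 9 eosinophil, basophil and mast cell markers summed to 6.08 to 11.9 CPM and 6.91 to 8.19 CPM, again highest in that library, as were 4 of the 7 genes with counts, with *Epx* and *Prg3* at 0 in all 6. Such a lead was not limited to these lists. *Rpl22*-/- replicate 2 was also highest for 8 of 12 transcription factors of granule genes, 6 of 8 protease inhibitors with counts and 5 of 8 other primary granule genes. It was highest for 2 of 9 myeloid growth factor receptors and 0 of 13 HSC markers. The share over all genes was not counted. The part of the monocyte, eosinophil, basophil and mast cell genes in the levels of *Mpo*, *Elane* and *Ctsg* was not tested. In bulk samples such as these, fewer cells of a type and less RNA per cell cannot be told apart.

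*Camp*, which encodes the cathelicidin precursor, was the secondary granule gene that passed the test. It had 11, 31 and 47 counts in *Rpl22*-/- libraries and 10, 2 and 3 counts in *Rpl22*+/+ libraries. The genotypes did not overlap, but *Rpl22*-/- replicate 1 (0.857 CPM) and *Rpl22*+/+ replicate 1 (0.768 CPM) were nearly level. *Camp* averaged 2.34 ± 1.37 CPM in *Rpl22*-/- and 0.414 ± 0.316 CPM in *Rpl22*+/+ libraries (SD, n = 3 each), and it rose by a log2 value of 2.43 ± 0.599 (SE, edgeR adjusted p = 0.0291). *Camp* entered the test only through the *Rpl22*-/- libraries, since 3 of them and 0 *Rpl22*+/+ libraries were over the 0.792 CPM that the filter asks of 3 libraries, so a gene with this pattern had to be higher there. DESeq2 also called it (adjusted p = 0.00647), while limma-voom did not (adjusted p = 0.0557), and the call was lost without *Rpl22*-/- replicate 2 or 3 or *Rpl22*+/+ replicate 2 or 3 (adjusted p = 0.0780, 0.148, 0.120 and 0.109), with log2 fold changes of 2.36, 1.98, 2.03 and 2.29.

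*Ltf*, which encodes lactoferrin, the iron-binding protein of specific granules, had 24, 22 and 43 counts in *Rpl22*-/- libraries. *Rpl22*+/+ replicate 1 had 24 counts, as many as *Rpl22*-/- replicate 1, whereas *Rpl22*+/+ replicates 2 and 3 had 2 and 1. *Ltf* thus had a log2 difference of 1.63 ± 0.629 (SE, edgeR adjusted p = 0.138). *Ngp*, a cystatin-related granule protein, had 24, 50 and 66 counts in *Rpl22*-/- libraries and 33, 13 and 3 counts in *Rpl22*+/+ libraries, so that *Rpl22*+/+ replicate 1 lay above *Rpl22*-/- replicate 1. For *Ngp* the log2 difference was 1.43 ± 0.499 (SE, edgeR adjusted p = 0.0995). *Lcn2*, which encodes the siderophore-binding lipocalin 2, was the lowest of the members, with 14, 25 and 7 counts in *Rpl22*-/- libraries and 12, 0 and 0 counts in *Rpl22*+/+ libraries. A count of 0 in *Rpl22*+/+ replicate 3 allows up to 3 counts, or 0.312 CPM, as a one-sided 95% limit on counting error. For *Lcn2* the log2 difference was 1.83 ± 0.833 (SE, edgeR adjusted p = 0.208). All 4 secondary granule genes were thus low but measurable in every *Rpl22*-/- library, and in the *Rpl22*+/+ libraries their counts were mostly those of replicate 1. *Camp*, *Ngp* and *Ltf* all lie on chromosome 9 between 109847379 and 111042767, and *Lcn2* lies on chromosome 2 (32384633 to 32388252).

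*S100a9*, the larger subunit of calprotectin, had 102, 80 and 111 counts in *Rpl22*-/- libraries and 164, 10 and 24 counts in *Rpl22*+/+ libraries. The *Rpl22*-/- libraries were close together, from 6.66 to 8.43 CPM, while the *Rpl22*+/+ libraries spanned 0.803 to 12.6 CPM and held both the highest and the lowest value. As a log2 difference this came to 0.50 ± 0.537 (SE, edgeR adjusted p = 0.632). Without *Rpl22*+/+ replicate 1 it was 2.28 and passed the threshold (adjusted p = 0.0087). *S100a8*, its partner, had 39, 21 and 18 counts in *Rpl22*-/- libraries and 68, 12 and 7 counts in *Rpl22*+/+ libraries. It was the only member with a negative log2 fold change over all 6 libraries, −0.21 ± 0.566 (SE, edgeR adjusted p = 0.866), and that sign turned to 1.25 (adjusted p = 0.245) without *Rpl22*+/+ replicate 1. The genes lie 22597 bases apart on chromosome 3, *S100a8* on the forward and *S100a9* on the reverse strand.

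**Figure D2:**
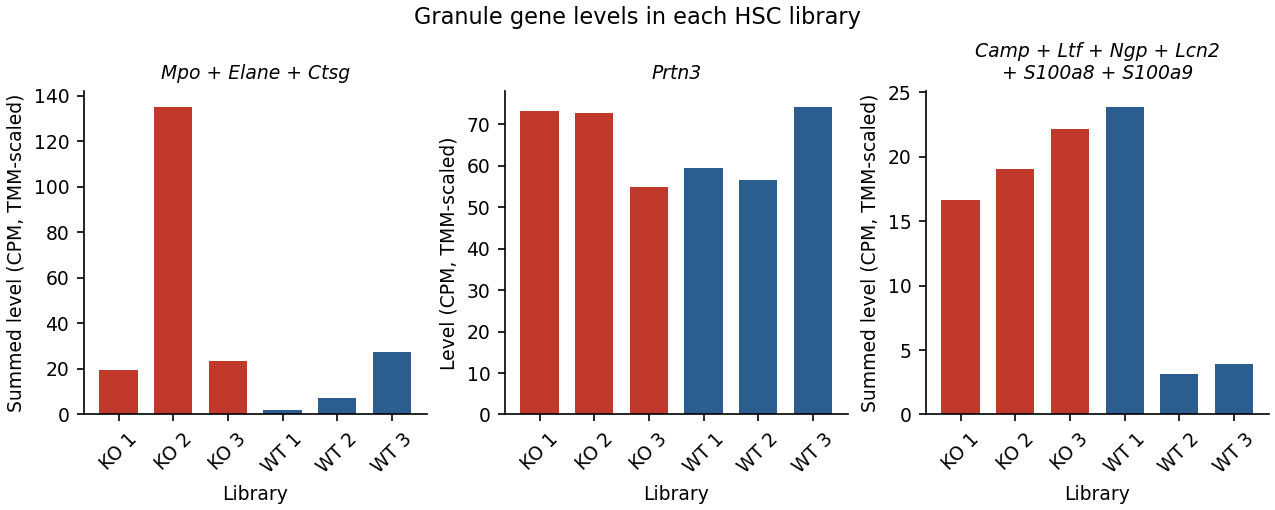
Summed level in CPM in each library for *Mpo*, *Elane* and *Ctsg* (left), level of *Prtn3* (middle) and summed level of the 4 secondary granule genes with both alarmins (right), with *Rpl22*-/- (KO) libraries in red and *Rpl22*+/+ (WT) in blue and each axis starting at 0. *Rpl22*-/- replicate 2 reaches 135 CPM on the left, and *Rpl22*+/+ replicate 1 has the lowest sum on the left (1.84 CPM) and the highest on the right (23.9 CPM).

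Summed over the 4 secondary granule genes and both alarmins, the level was 16.7, 19.1 and 22.2 CPM in *Rpl22*-/- libraries, and 23.9, 3.13 and 3.95 CPM in *Rpl22*+/+ libraries. *Rpl22*+/+ replicate 1 was above all *Rpl22*-/- libraries on this sum and below every library on the sum of *Mpo*, *Elane* and *Ctsg*, so the early and late granule genes did not order the libraries in the same way. *Rpl22*-/- replicate 2 was the highest library for 4 of the 10 members, 3 of them primary granule genes, *Rpl22*-/- replicate 3 for 3 members, *Rpl22*+/+ replicate 1 for both alarmins and *Rpl22*+/+ replicate 3 for *Prtn3*. Among 10 other late granule genes too low to test but with counts, *Rpl22*+/+ replicate 1 was the highest library by CPM for 3, *Rpl22*-/- replicate 2 for 3, *Rpl22*-/- replicate 3 for 3 and *Rpl22*+/+ replicate 2 for 1. The genes given next are named after their values were seen. *Retnlg*, which encodes a resistin-like protein of neutrophils, had 18 counts in *Rpl22*+/+ replicate 1 and 0 to 2 elsewhere. *Mmp8*, the neutrophil collagenase, had 9 counts in *Rpl22*+/+ replicate 1 and 0 to 5 elsewhere. Others were highest in *Rpl22*-/- libraries, as *Hp*, haptoglobin, had 41 counts in *Rpl22*-/- replicate 2 and 1 to 9 elsewhere, *Cd177*, a neutrophil surface antigen, 9 counts in *Rpl22*-/- replicate 2 and 0 to 5 elsewhere, and *Fcnb*, ficolin B, 10 counts in *Rpl22*-/- replicate 3 and 0 to 3 elsewhere. Over 17 markers of mature neutrophils, which include both alarmins, *Retnlg* and *Mmp8*, *Rpl22*+/+ replicate 1 was the highest library for 7. *Rpl22*-/- replicates 1 and 3 were highest for 3 each, and *Rpl22*-/- replicate 2 and *Rpl22*+/+ replicate 3 for 2 each. Of the 10 neutrophil surface and receptor markers, *Rpl22*+/+ replicates 1 and 3 were highest for 3 each. *Ly6g* had 3 counts in *Rpl22*+/+ replicate 1 and 0 to 2 in the others, and *Cxcr2* had 34 against 13 to 25. Shares over all genes were not counted. The summed level of the 10 neutrophil surface and receptor markers was 21.8 to 23.3 CPM in *Rpl22*-/- and 18.7 to 27.3 CPM in *Rpl22*+/+ HSCs. Their part in the levels of the secondary granule genes and alarmins was not tested.

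**Figure D3:**
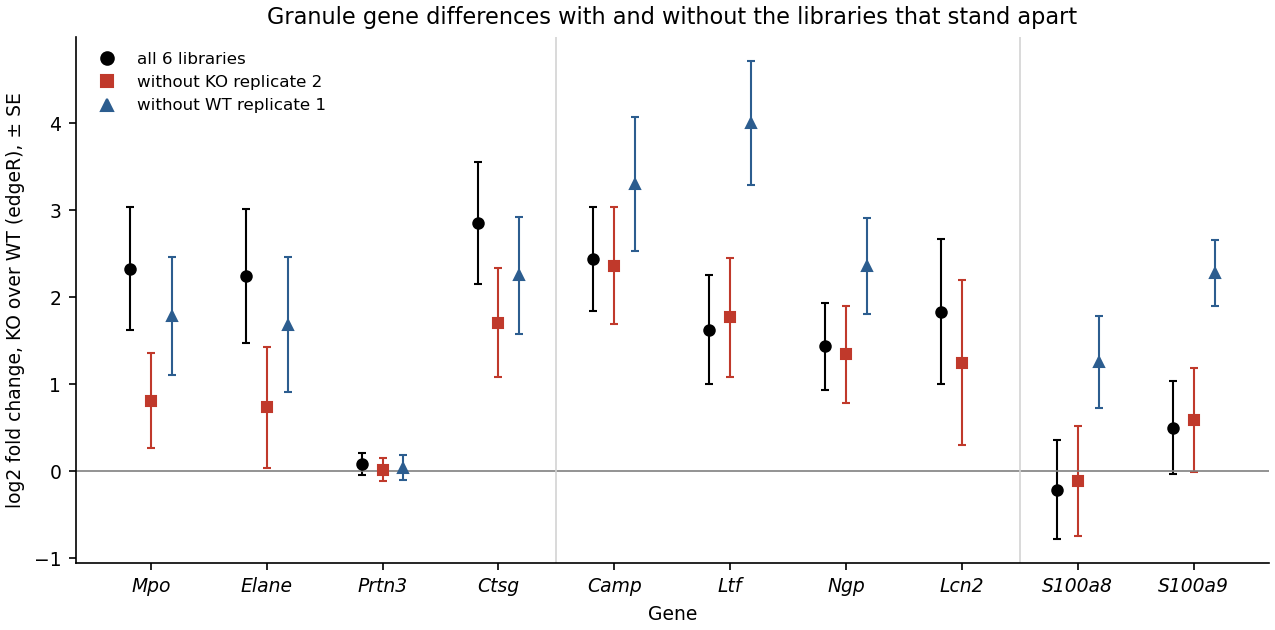
Log2 fold change of *Rpl22*-/- (KO) over *Rpl22*+/+ (WT) HSCs for each granule gene from edgeR, with its standard error as the bar, from all 6 libraries (black circles), without *Rpl22*-/- replicate 2 (red squares) and without *Rpl22*+/+ replicate 1 (blue triangles), the last left out for *Lcn2* because the remaining *Rpl22*+/+ libraries had 0 counts. *Mpo* and *Elane* drop to 0.81 and 0.74 without *Rpl22*-/- replicate 2, and *S100a9* goes from 0.50 to 2.28 without *Rpl22*+/+ replicate 1.

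Of the 10 members, 2 rose in *Rpl22*-/- HSCs (*Ctsg* and *Camp*) and 0 fell, where 3.28% of the 14004 genes tested were called higher and 5.57% were called in either direction. Of these members, *Camp* was over the filter in *Rpl22*-/- libraries only and, with such counts, had to be higher there, whereas *Ctsg* was over it in 2 *Rpl22*+/+ libraries as well. At an unadjusted p under 0.05, 7 members were higher in the edgeR test, beside 11.6% of all genes tested. With DESeq2 3 members were higher at that p, beside 11% of all genes, and with limma-voom 8, beside 11.4%. DESeq2 called 1 member higher, *Camp*, beside 4.43% of all genes, and limma-voom 1 member, *Ltf*, beside 3.01%. The log2 fold change was positive for 9 of 10 members, beside 6826 of the 14004 genes tested. Its median was 1.73 over the members, against a median of −0.0068 over all genes tested. By class the median was 2.28 for the 4 primary granule genes, 1.73 for the 4 secondary granule genes and 0.14 for the 2 alarmins, of which 0 were called (0 at an unadjusted p under 0.05 with edgeR or DESeq2, 1 with limma-voom). The genotypes did not overlap, with *Rpl22*-/- higher, for 2 of 10 members, again *Ctsg* and *Camp*, beside 13.3% of all genes tested.

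The count depended on which libraries were kept, and 0 to 5 members passed when 1 library was left out. Without *Rpl22*-/- replicate 2, 0 of the 10 members passed (1.68% of genes were called higher in that fit), with 1 primary and 3 secondary granule genes at an unadjusted p under 0.05, beside 9.4% of genes higher at that p. Without *Rpl22*+/+ replicate 1, 5 members passed, namely all 4 secondary granule genes and *S100a9*, beside 0.953% of all genes called higher. *Camp*, *Ltf* and *Lcn2* were then over the filter in 0 *Rpl22*+/+ libraries, and entered this fit only through the *Rpl22*-/- libraries, so a member with such counts had to be higher there, and *Lcn2* was set against 0 counts. *Ngp* and *S100a9* were over the filter in *Rpl22*+/+ libraries as well (adjusted p = 0.0476 and 0.0087, edgeR). Without *Rpl22*-/- replicate 1 the members called were *Mpo*, *Elane*, *Ctsg*, *Camp* and *Ngp* (6.78% of all genes called higher), and without *Rpl22*+/+ replicate 3 they were *Mpo*, *Elane* and *Ctsg* (1.03%). Over the filter in 0 *Rpl22*+/+ libraries were *Camp* in the first of these fits and *Elane* in the second. The count was 0 without *Rpl22*-/- replicate 3 (0.618% of all genes called higher, with 5 members and 9.43% of genes higher at an unadjusted p under 0.05) and 0 without *Rpl22*+/+ replicate 2 (1.24% of all genes, with again 5 members and 9.31% of genes at an unadjusted p under 0.05). Without both *Rpl22*-/- replicate 2 and *Rpl22*+/+ replicate 1, 2 of the 9 members still tested passed, *Ltf* and *S100a9* (adjusted p = 0.0240 and 0.0209, edgeR), beside 0.346% of all genes, *Ltf* with 0 *Rpl22*+/+ libraries over the filter, and *Mpo*, *Elane* and *Ctsg* had log2 fold changes of 0.27, 0.19 and 1.11. Which members passed thus changed from fit to fit.

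**Figure D4:**
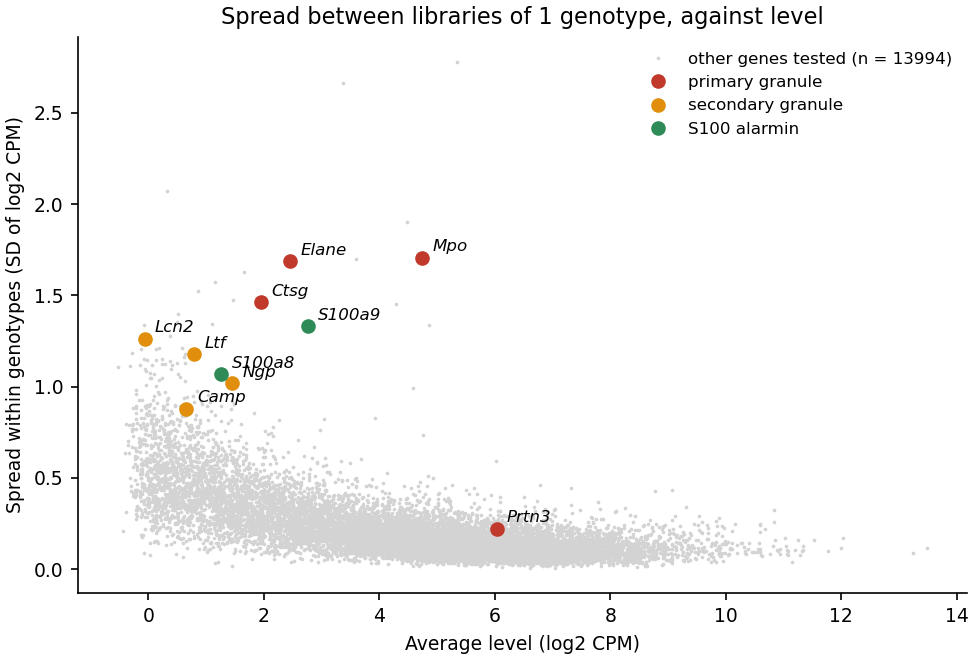
Spread between libraries of 1 genotype (SD of log2 CPM, both genotypes pooled) against average level (log2 CPM) for all genes tested, with the granule genes coloured by class and the other genes in grey. *Mpo*, *Elane* and *Ctsg* have SDs of 1.71, 1.69 and 1.46, far over the bulk of genes at their level, whereas *Prtn3* has an SD of 0.22.

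Libraries of the same genotype also differed widely in these genes. The SD of log2 CPM within genotypes had a median of 1.22 over the 10 members and of 0.15 over all genes tested. For *Mpo* it was 1.71, larger than in 99.9% of the 2453 genes whose average level lay within 0.5 log2 units of it. *Elane* (1.69, 99.9% of 1097 genes), *Ctsg* (1.46, 99.7% of 1062 genes) and *S100a9* (1.33, 99.8% of 1144 genes) stood in the same position. The figures for *Lcn2*, *Ltf*, *S100a8* and *Ngp* were 1.26, 1.18, 1.07 and 1.02, each above 99.0% or more of genes at their level, and *Camp*, at 0.88, was above 95.3%. *Prtn3* was the most even, with 0.22, which was still above 94.6% of 2740 genes at its level. The highest over the lowest library was 7.31 for *Mpo*, 7.40 for *Elane* and 6.22 for *Ctsg* within *Rpl22*-/- HSCs, and 14.0, 16.6 and 25.7 within *Rpl22*+/+ HSCs. *Prtn3* had ratios of 1.33 and 1.31.

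Levels were also set against each other per kilobase of exon. In *Rpl22*-/- HSCs the order was *Prtn3* (38.7 ± 5.98 CPM per kilobase), *S100a9* (14.7 ± 1.76), *Mpo* (12.9 ± 14.5), *Elane* (8.97 ± 10.04), *Ctsg* (6.26 ± 5.996), *Camp* (3.08 ± 1.81), *Ngp* (3.01 ± 1.33), *S100a8* (2.96 ± 1.26), *Ltf* (0.673 ± 0.237) and *Lcn2* (0.471 ± 0.299), each with an SD over 3 libraries. In *Rpl22*+/+ HSCs it was *Prtn3* (36.6 ± 5.49 CPM per kilobase), *S100a9* (10.2 ± 12.2), *S100a8* (3.32 ± 3.65), *Mpo* (2.70 ± 2.91), *Elane* (2.05 ± 2.72), *Ngp* (1.06 ± 0.927), *Ctsg* (0.922 ± 0.928), *Camp* (0.546 ± 0.417), *Ltf* (0.204 ± 0.287) and *Lcn2* (0.117 ± 0.203). *Prtn3* led in both genotypes, and its lowest library, 31.8 CPM per kilobase, was above the highest library of any other member, 29.6 for *Mpo* in *Rpl22*-/- replicate 2. Below *Prtn3*, neighbours in either order overlapped between libraries, except *S100a8* and *Ltf* in *Rpl22*-/- HSCs.

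Other genes of the granule program were read from lists fixed beside the members. Of 8 other genes of primary granules and promyelocytes, all 8 were tested and 0 were called by edgeR (4 at an unadjusted p under 0.05, 1 called by DESeq2, 0 by limma-voom), with a median log2 fold change of 0.25. *Calr*, the chaperone calreticulin, *Srgn*, the proteoglycan serglycin that packs granule proteases, and *Ctsc*, which activates them by cutting off a dipeptide, had log2 fold changes of 0.38, 0.11 and −0.13 (adjusted p = 0.0879, 0.471 and 0.372). The lowest adjusted p of the list was that of *Cst7*, cystatin F, an inhibitor of the *Ctsc* product, with 42, 54 and 34 counts against 19, 24 and 12 (log2 fold change 1.14, adjusted p = 0.0596, edgeR), named here after its values were seen. Of 15 other genes of specific, gelatinase and secretory granules, 4 were tested and 0 called (0 at an unadjusted p under 0.05 with edgeR, 0 called by DESeq2 or limma-voom), 8 had under 10 counts in every library and *Olfm4* was at 0 throughout. *Lyz2*, lysozyme, was the most abundant of them, with 2338 to 2959 counts in *Rpl22*-/- and 1879 to 2456 in *Rpl22*+/+ libraries (log2 fold change 0.12, adjusted p = 0.522), followed by *Pglyrp1*, a peptidoglycan-binding protein (0.17, adjusted p = 0.767), and *Cybb*, the NADPH oxidase subunit (0.43, adjusted p = 0.621).

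The transcription factors that drive granule genes were measured in 12 genes, of which 10 were tested and 0 called by edgeR (1 at an unadjusted p under 0.05, 0 called by DESeq2 or limma-voom), with a median log2 fold change of 0.23. *Myb*, *Cbfb* and *Runx1*, which act on primary granule promoters, had log2 fold changes of 0.01, −0.10 and 0.16 (adjusted p = 0.963, 0.591 and 0.300). *Spi1*, which encodes PU.1, and the C/EBP genes *Cebpa*, *Cebpb* and *Cebpd* are named here outside the rule. Their log2 fold changes were 0.20, 0.28, 0.29 and −0.40 (adjusted p = 0.260, 0.703, 0.547 and 0.724, edgeR). For *Spi1* every *Rpl22*-/- library was above every *Rpl22*+/+ library, as for 13.3% of all genes tested. *Cebpe*, needed for secondary granules, had 2 to 9 counts per library and was not tested. None of the 9 myeloid growth factor receptors was called (3 at an unadjusted p under 0.05 with edgeR, 0 called by DESeq2 or limma-voom), among them *Csf3r*, the receptor of granulocyte colony-stimulating factor, at −0.12 (adjusted p = 0.416), *Kit* at 0.0033 (adjusted p = 0.988) and *Csf2ra* at 0.21 (adjusted p = 0.246).

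Protease inhibitors were counted in 10 genes, some of them inhibitors of cysteine proteases rather than of the serine proteases of the granules. Of these 10 genes, 5 were tested and 1 rose with edgeR (4 at an unadjusted p under 0.05, 2 called higher by DESeq2, 1 by limma-voom). The gene called by edgeR was *Cst3*, cystatin C, an inhibitor of cysteine proteases. It had 1981, 2074 and 1861 counts in *Rpl22*-/- libraries against 1619, 1467 and 1238 in *Rpl22*+/+ libraries (log2 fold change 0.34, adjusted p = 0.0409, edgeR). *Serpinb1a*, which inhibits elastase, cathepsin G and proteinase 3, differed by 0.05 on the log2 scale (adjusted p = 0.754), and *Serpina3g* by 0.30 (adjusted p = 0.0846). Of 10 other S100 genes and alarmin receptors, all tested, 1 rose and 1 fell. *S100a1* had 684, 799 and 838 counts against 547, 493 and 374 (log2 fold change 0.61, adjusted p = 0.00536), and *Tlr4*, a receptor for calprotectin and lipopolysaccharide, had 220, 183 and 242 against 321, 299 and 227 (log2 fold change −0.51, adjusted p = 0.0315, edgeR). *S100a10*, *S100a11* and *Bsg* had log2 fold changes of 0.14, 0.28 and 0.18 (adjusted p = 0.364, 0.0731 and 0.270).

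Of 17 markers of mature neutrophils, 5 of them granule members, 10 were tested and 2 rose, *Camp* and *Cxcr4*. *Cxcr4*, the receptor that holds stem cells and neutrophils in the marrow, rose by 0.37 on the log2 scale (adjusted p = 0.0427, edgeR). *Itgam*, *Clec4e*, a receptor for mycobacterial glycolipids, and *Clec4d*, a related C-type lectin, had log2 fold changes of −0.15, −0.34 and 0.97 (adjusted p = 0.654, 0.466 and 0.163). Lists of other lineages gave 5 of 7 megakaryocyte markers higher (*Itga2b*, *Pf4*, *Gp5*, *Gp9* and *Gp1bb*) and 1 of 6 tested erythroid markers lower (*Car1*) with edgeR, of which *Pf4* was not called by DESeq2 (adjusted p = 0.209) and *Car1* not by limma-voom (adjusted p = 0.0530), while of the markers of B cells (2 tested), T and NK cells (4 tested), monocytes and macrophages (6 tested) and eosinophils, basophils and mast cells (1 tested) 0 were called by edgeR, DESeq2 or limma-voom (1, 1, 1 and 0 at an unadjusted p under 0.05 with edgeR). Among HSC markers, *Gata2* rose and *Fgd5* fell (log2 fold changes 0.39 and −0.41, adjusted p = 0.0190 and 0.0308). Outside the granule members, *S100a1*, *Gp5* and *Gp1bb* were still called both without *Rpl22*-/- replicate 2 and without *Rpl22*+/+ replicate 1, whereas *Cst3*, *Tlr4*, *Cxcr4*, *Car1*, *Fgd5*, *Gp9* and *Pf4* were called in neither fit and *Gata2* and *Itga2b* only in the first.

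The genes most like the members across the 6 libraries were found by Pearson's correlation of log2 CPM among 10644 genes outside the list with an average of at least 3 log2 CPM. For the sum of the 4 primary granule genes they were *Capg*, *Ctdnep1*, *Kcnn4*, *Tyw1* and *Galk1*, with r between 0.980 and 0.991 over 6 libraries, and 73 genes had r over 0.9. For the sum of the other 6 members they were *Wrap53*, *Fads2*, *Zfp109*, *Fam38a* and *AC122127.1*, with r between 0.969 and 0.983, and 49 genes had r over 0.9. Their levels ranged little, the highest library of *Capg* being 1.34 times its lowest and that of *Fam38a* 1.09 times. Over the same 6 libraries the primary granule sum ran from 61.3 to 208 CPM, and the sum of the other 6 members from 3.13 to 23.9 CPM. The libraries are shared by both sides of each correlation, and with 6 points among so many genes a high r is a description only.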

How the data were processed

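Lineage-negative Kit+ Sca1+ CD48- CD150+ HSCs were sorted from bone marrow into TriReagent, and polyA RNA libraries were made with a TruSeq kit. The authors aligned the reads to mm10 with TopHat2 2.1.1, per the labels, and deposited HTSeq counts per gene, raw and without normalization. The annotation and strand setting are not given in the sources used here. Between 58.6% and 60.9% of each library fell in HTSeq's unassigned totals, which were kept out. The total in no annotated feature alone was 50.3% to 52.7% of each library. All per-sample columns were used (0 left out).

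The 10 members and the gene lists were chosen with earlier results of these data known. In edgeR 4.0.16 (R 4.3.3), filterByExpr (minimum count 10) kept 14004 genes, TMM factors scaled them, and the quasi-likelihood test compared 3 *Rpl22*-/- with 3 *Rpl22*+/+ libraries, with Benjamini-Hochberg adjustment and a threshold of 0.05. The study used DESeq2, here an alternative (1.42.0) with limma-voom 3.58.1, other scalings and filters, a replicate block and each library left out. Leaving out *Rpl22*-/- replicate 2 together with *Rpl22*+/+ replicate 1 was chosen after the counts were seen. With 3 libraries against 3, an exact permutation test cannot go below 0.1, so none is given.

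Named genes are *Rpl22*, *Cd48*, the members, each list's called genes and its 3 most abundant, and the 5 most like each sum, with exceptions marked. An item of the neutrophil marker lists is not reported here, and the counts and sums of those lists leave it out. Exon lengths and positions came from GENCODE M21 (GRCm38), promoters from RefSeq (GRCm38.p6). The tests were first tried on simulated counts. Tables and plots were made in Python 3.11.15 with matplotlib 3.10.9, numpy 2.4.6, scipy 1.17.1 and pandas 2.3.3.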

Additional observations from a re-analysis of the deposited data

How the results depend on the processing

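The 10 granule genes rest on low counts, often under 50 per library, and on 3 libraries per genotype, which limits what the test can call. Of the 10 members, 2 were called with edgeR's relative log expression or upper-quartile factors or library size alone, as with TMM, 6 without the filter, 0 of 3 tested with at least 10 counts in every library (1 at an unadjusted p under 0.05, *Mpo*, adjusted p = 0.0612), 1 with DESeq2 (*Camp*) and 1 with limma-voom (*Ltf*, adjusted p = 0.0462). The shares of all genes called higher in these fits were, in this order, 3.4%, 3.56%, 2.63%, 3.99%, 3.48%, 4.43% and 3.01%, against 3.28% with TMM. Leaving out 1 library gave 0 to 5. In the fit without the filter the prior degrees of freedom were infinite, so that each gene's spread was set to the trend, against a median of 11.6 in the fit reported. Over all genes, 780 were called (459 higher), 1422 without the filter, 127 to 1720 with 1 library left out and 63 without both *Rpl22*-/- replicate 2 and *Rpl22*+/+ replicate 1. With library size alone 850 were called, 369 of them higher.

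The deviations of same-numbered libraries from their genotype means correlated at −0.103, 0.0549 and 0.0448, within the range of differently numbered pairs (−0.171 to 0.132). Deviations cancel within each genotype and the libraries are few, so these values cannot show whether the replicate numbers pair the libraries. A fit with a replicate block called 904 of 14004 genes, 518 of them higher, which is 3.7% of the genes tested. It called 3 members, all higher, namely *Ctsg*, *Mpo* and *Camp* (adjusted p = 0.00499, 0.0203 and 0.0312, edgeR). *Camp* was again over the filter in *Rpl22*-/- libraries only. The sign of the *S100a8* log2 fold change turned with limma-voom (0.22), with the replicate block (0.11) and without both libraries (1.35), and ran from −0.61 to 1.25 with 1 library left out. *S100a9* ran from −0.018 to 2.28 with 1 library left out, and *Prtn3* was −0.026 without both. The log2 fold change of *Rpl22* ran from −3.81 to −3.65 with 1 library left out. The log2 ratio of mean summed CPM ran from 0.47 to 2.45 for the secondary granule genes and alarmins, from 0.82 to 3.71 for *Mpo*, *Elane* and *Ctsg* and from 0.18 to 1.01 for the 4 primary granule genes with 1 library left out. In the other fits run, the 8 members other than *Prtn3* and *S100a8* kept a positive log2 fold change, except *S100a9* without *Rpl22*+/+ replicate 2. The cause of these changes was not tested.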
